A study of Mus musculus with 11 samples.

Results

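Zeb1 and Zeb2 are the paralogous zinc-finger genes of the Zeb family, and the comparison followed their messenger RNA through macrophages (macs) of 5 mouse tissues with and without a Cre-deleted Zeb2 gene. Both genes were taken by name, 2 of the 27998 genes counted in every library. Single-cell 3′ RNA sequencing on the 10x Genomics platform had been run on sorted macs, with 1 library per tissue and genotype and 11 libraries in all: microglia from brain, colon macs (CMs), Kupffer cells (KCs) from liver, alveolar macs (AMs) from lung and splenic macs (SMs), each from Zeb2fl/fl (WT) and from Cre-deleted (Zeb2KO) mice, and a further KC library from WT Nr1h3fl/fl mice. All mice were described in the methods of the study as C57Bl/6, of both sexes and 6 to 8 weeks old. By the same methods CMs and SMs were sorted as negative for the surface protein SiglecF and AMs as positive. No SiglecF gate is given for KCs or microglia. The study reports SiglecF on Zeb2-deleted KCs and higher Siglecf RNA in deleted cells of spleen, brain and colon. The Zeb2fl/fl WT and Zeb2KO libraries share the floxed Zeb2 allele, while the Nr1h3fl/fl library carries a floxed Nr1h3 gene and no floxed Zeb2 gene in its labels. Every Zeb2KO library is labelled Fcgr1-crexZeb2fl/fl. The study's own text instead has Clec4f-cre in the liver and Itgax-cre in the lung, and the counts do not settle which is right. Fcgr1 encodes the Fc receptor CD64 of macs, Clec4f a lectin of KCs and Itgax the integrin CD11c of AMs and dendritic cells.

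ZEB proteins carry a cluster of zinc fingers at each end, bind E-box-like motifs with the core CACCT, recruit CtBP and other corepressors and are best known for repressing epithelial genes in epithelial-to-mesenchymal transition. In most settings they act downstream of TGFβ and BMP signals, and ZEB2 also binds receptor-activated SMADs, which gave it its older name SIP1. The microRNAs of the miR-200 family repress both ZEB genes through their 3′ untranslated regions, and in the immune system ZEB2 is known for roles in monocytes, plasmacytoid dendritic cells and effector lymphocytes.

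Zeb2 lies on the minus strand at chr2:44983632-45117395 of mm10 (GRCm38, GENCODE M21). Its reference transcript with 11 exons has in exon 9, which is 1970 bases long, 54% of the 3645 coding bases, and its last exon is 5522 bases long, most of it 3′ untranslated. A 3′ library counts this last exon. The study describes the deleted allele as still giving a shortened RNA, and the exon flanked by loxP sites is not given in the sources used here, so Zeb2 counts do not check the deletion and a high Zeb2 count in a Zeb2KO library is not a count of intact Zeb2. The antisense gene Zeb2os lies on the plus strand at chr2:45110707-45114087, inside Zeb2 near its start and 121554 bases from the last Zeb2 exon. Whether strand was used in counting is not given in the sources used here.

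The following sequences show the letters through which the miR-200 family is known to act on Zeb2, in the same last exon as the counted 3′ end. The first pair, from RefSeq (GRCm38.p6), are mature microRNAs of the miR-200 family with the seed, bases 2 to 8, in capitals, and the second pair are windows of the Zeb2 3′ untranslated region, 5′ to 3′ on the minus strand, with the complement of each seed in capitals. The 4941-base 3′ untranslated region, taken from GENCODE M21, held 5 matches to the seed of miR-200b (CAGTATT) and 4 to that of miR-200a (CAGTGTT), all of them within the last exon. Of these 9 matches 8 lay 3896 to 4726 bases before the end of the transcript and 1, in the second window shown, 772 bases before it, so most of them are far from the end at which 3′ reads start. A match is a description of the letters, and no microRNA was measured.
mmu-miR-200b-3p: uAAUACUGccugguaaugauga
mmu-miR-200a-3p: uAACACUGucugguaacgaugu
Zeb2 window chr2:44988173-44988195: cgcactaccatacatCAGTATTt
Zeb2 window chr2:44984403-44984425: acatcagaaggactgCAGTGTTt

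The promoter windows, from RefSeq (GRCm38.p6), span 250 bases before to 50 after a RefSeq start site, with CACCT in capitals, searched on both strands, so that it reads AGGTG where it lies on the opposite one. They are shown for Zeb2 itself and for Spint2 and Epcam, genes of the list of epithelial targets below that differed between Zeb2KO and WT libraries. The window of the most upstream Zeb2 start, on the minus strand at chr2:45117393-45117692, held this core once. That of Spint2, on the minus strand at chr7:29281928-29282227, held it 4 times, of which 3 were extended by G to the longer E-box CACCTG. That of Epcam, on the plus strand at chr17:87635729-87636028, held it 2 times, both of them extended. The core occurred in 51.9% and the longer E-box, which contains it, in 20.2% of 32851 windows of this length over the genome, so a window with the core is an ordinary one. The windows of Spint1 and Cldn1, which were also higher in AM_Zeb2KO, held the core 0 times.
Zeb2: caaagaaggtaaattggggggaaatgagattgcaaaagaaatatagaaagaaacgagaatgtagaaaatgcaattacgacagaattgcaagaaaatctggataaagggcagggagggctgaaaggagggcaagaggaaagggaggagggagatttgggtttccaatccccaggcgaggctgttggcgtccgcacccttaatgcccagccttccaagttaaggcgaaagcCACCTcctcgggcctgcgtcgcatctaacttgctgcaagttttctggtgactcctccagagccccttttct
Spint2: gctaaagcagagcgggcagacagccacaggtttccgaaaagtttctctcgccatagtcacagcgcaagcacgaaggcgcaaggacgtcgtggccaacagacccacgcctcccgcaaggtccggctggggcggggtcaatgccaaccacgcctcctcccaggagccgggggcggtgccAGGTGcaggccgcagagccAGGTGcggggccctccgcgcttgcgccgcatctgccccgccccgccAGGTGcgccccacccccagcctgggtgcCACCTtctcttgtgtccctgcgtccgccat
Epcam: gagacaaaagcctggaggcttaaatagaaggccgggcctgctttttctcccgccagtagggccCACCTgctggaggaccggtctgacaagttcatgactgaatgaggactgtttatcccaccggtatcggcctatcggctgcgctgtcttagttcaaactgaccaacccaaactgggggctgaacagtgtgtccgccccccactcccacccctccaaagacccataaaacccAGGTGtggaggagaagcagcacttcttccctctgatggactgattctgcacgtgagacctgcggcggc

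The libraries held 11133411 to 47400786 unique molecular identifiers (UMIs, counted molecules), with a median of 2108.5 to 8754 per barcode. A filter on depth, genes and mitochondrial share removed 4.66% to 9.22% of barcodes, and clusters of other cell types, 0 to 28.5% of the rest, were set aside, in the spleen most of them B cells. That left 2830 to 6974 macs per library, with median UMIs of 2168 to 9232.5. The identity markers followed the labels: the summed level of 8 microglial markers was 30400 CPM in WT microglia and at most 712 CPM in the other tissues. The largest share of barcodes in common between any pair of libraries was 1.45% of the smaller one. In AM_Zeb2KO the summed level of 8 neutrophil markers was 23900 CPM against 59.4 in AM_WT, carried by S100a8 and S100a9, and its part in the AM results was not tested.

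Zeb2 was abundant in macs of every tissue. Levels are UMI counts on a per-million scale (CPM), summed over the macs of a library, and each carries an exact Poisson 95% interval that covers counting error only. Zeb2 stood at 749 CPM in SM_WT (95% interval 729 to 769), 475.5 in microglia_WT (463 to 488), 385.5 in KC_WT (378 to 394), 375 in CM_WT (369 to 381) and 312 in AM_WT (306 to 319). The highest was thus 2.4-fold over the lowest. KCs and AMs were sequenced on a NextSeq and the other tissues on a HiSeq, with different Cell Ranger versions, per the study's methods. The part of this and of the sort gates in the order of tissues was not tested. With 1 library per group no test was possible within a tissue, and the gap between the KC_WT library and the Nr1h3fl/fl KC library, where Zeb2 was 516 CPM (505 to 526.5), served as the size of a difference without Zeb2 deletion. That gap was 0.42 on the log2 scale of CPM + 1. By this yardstick SMs stood above microglia, by 0.66, while the gaps between the neighbours microglia, KCs, CMs and AMs, of 0.04 to 0.30, were smaller than it.

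Zeb2 3′ counts were higher in the Zeb2KO than in the WT library of every tissue. In microglia the level was 475.5 CPM in WT and 1747 in Zeb2KO, a log2 ratio of 1.88 (95% interval by counting 1.84 to 1.92) and 3.67-fold. In KCs it was 385.5 in WT and 785 in Zeb2KO, a log2 ratio of 1.02 (0.99 to 1.06). In AMs it was 312 in WT and 480.5 in Zeb2KO, a log2 ratio of 0.62 (0.58 to 0.66). These 3 ratios were larger than the gap of 0.42 between the WT liver libraries. In CMs the level was 375 in WT and 476 in Zeb2KO, a log2 ratio of 0.34 (0.31 to 0.38), and in SMs it was 749 in WT and 913 in Zeb2KO, a log2 ratio of 0.29 (0.24 to 0.34). Both of these lay beyond counting error and within the gap of the WT liver libraries. CMs and SMs were the tissues sorted as SiglecF-negative, and the part of that gate in their ratios was not tested. Against the Nr1h3fl/fl KC library the KC ratio was 0.60 in place of 1.02, so that the choice of control decided whether Zeb2 in KCs passed a log2 ratio of 1, as did scaling by TMM factors, with which it was 0.99.

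**Figure D1:**
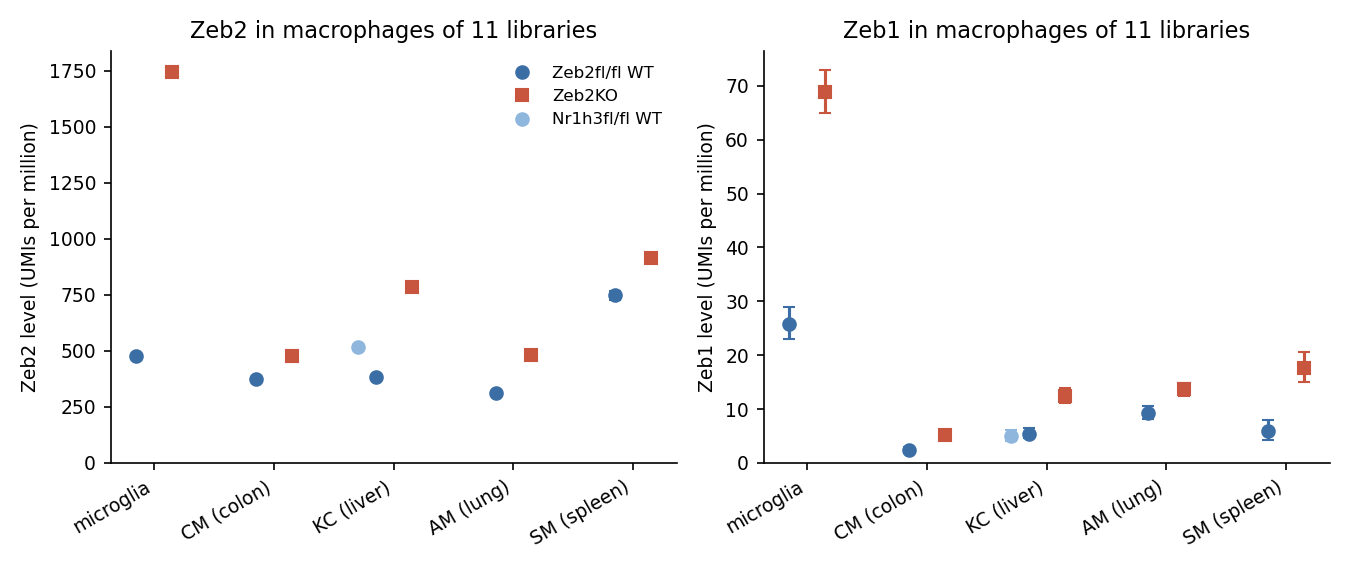
Levels of Zeb2 (left) and Zeb1 (right) in macs, in CPM on the vertical axis, by tissue, with WT, Zeb2KO and Nr1h3fl/fl WT libraries as separate symbols and exact Poisson 95% intervals as lines (1 library per symbol). For both genes the Zeb2KO library lies above the WT library in all 5 tissues, from 476 to 1747 CPM of Zeb2 in Zeb2KO against 312 to 749 in WT.

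To see how common such ratios were, a gene was counted as higher or lower at an absolute log2 ratio of 1 or more, provided 1 of the libraries had it at 20 CPM. In microglia 4.27% of 5922 genes were higher and 4.07% lower in Zeb2KO, and Zeb2 was among the higher ones, with 2.16% of the genes above it. In KCs 3.47% of 5394 were higher and 1.26% lower, and Zeb2 was again among the higher ones, with 3.39% of the genes above it. In AMs 4.37% were higher and 7.33% lower, in CMs 1.08% and 0.489%, and in SMs 2.58% and 0.876%, and Zeb2 was not past 1 in these. The background without Zeb2 deletion, the Nr1h3fl/fl KC library over KC_WT, had 0.503% higher and 0.809% lower, and neither Zeb gene was among them. The median log2 ratio of all these genes was −0.31 in AMs and between −0.09 and 0.08 in the other comparisons, so that relative to the median gene the AM ratios of Zeb2 and Zeb1 were larger than the values printed here. With TMM scaling, which took the AM median to −0.02, 6.37% of AM genes were higher and 3.36% lower, and the higher ones made up 65.4% of those counted in place of 37.4%.

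Zeb1 lies on the plus strand at chr18:5591860-5775467 and is overlapped near its start by the gene Gm10125 on the other strand. Its 3′ counts were few and were also higher in every Zeb2KO library. In microglia the level was 25.9 CPM in WT (23.1 to 28.9) and 68.9 in Zeb2KO (65.0 to 73.0), a log2 ratio of 1.38. In SMs it was 5.88 and 17.6 CPM, a log2 ratio of 1.44 that was 0.52 with all barcodes, where neither the cell filter nor the removal of other cell types was applied, and in KCs 5.45 and 12.4, a log2 ratio of 1.06. In CMs it was 2.44 and 5.20, a log2 ratio of 0.85, or 0.57 with all barcodes, and in AMs 9.33 and 13.7, a log2 ratio of 0.51. In none of the 5 tissues did the counting intervals of the paired levels overlap. The Nr1h3fl/fl KC library was at 4.99 CPM against 5.45 in KC_WT, a gap of −0.11, and all 5 Zeb2KO ratios were larger than it in size. The counting interval of that gap ran from −0.53 to 0.27 and took in 0. The AM ratio of 0.51 was no larger in size than the lower end of that interval. Only microglia reached 20 CPM, so Zeb1 was counted as higher there and was under the floor in the other tissues. SM_WT held 43 UMIs of Zeb1 in all and CM_WT 105, so these ratios rest on few molecules.

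The order of tissues differed between the paralogs. As for Zeb2, the part of sequencer, software version and sort gate in it was not tested. Among WT libraries Zeb1 was highest in microglia, 10.6-fold over the lowest, CMs, followed by AMs, SMs and KCs. SMs and KCs differed by 0.10 on the log2 scale, less than the WT liver gap of 0.11 for Zeb1, whose counting interval took in 0. The other neighbours differed by 0.585 to 1.38, more than the 0.53 at the far end of that interval. AMs, lowest for Zeb2, came next to microglia for Zeb1, and SMs, highest for Zeb2, came after them. Among Zeb2KO libraries microglia were highest for both genes, with Zeb2 0.94 above SMs and Zeb1 1.91 above SMs on the log2 scale.

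**Figure D2:**
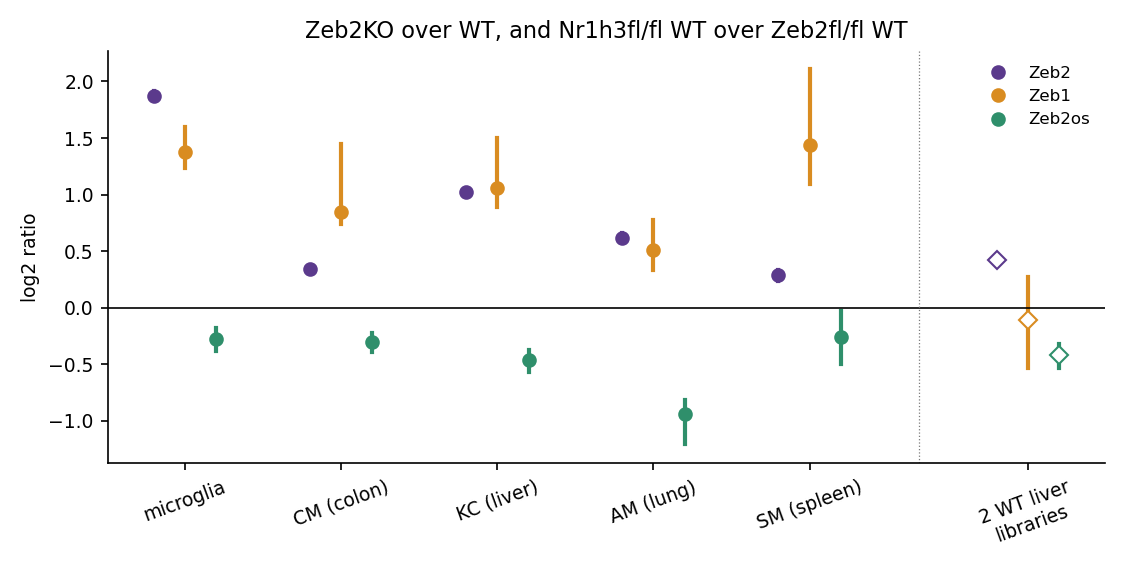
Log2 ratio of Zeb2KO over WT for Zeb2, Zeb1 and Zeb2os by tissue, with the ratio of the 2 WT liver libraries beside them. Points are ratios of CPM + 1 and lines are exact 95% counting intervals of the ratio without the added 1. Zeb2 and Zeb1 lie above 0 and Zeb2os below 0 in all 5 tissues.

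Over the 5 tissue pairs the direction held while the adjusted p did not pass 0.05. edgeR's quasi-likelihood test on summed counts with tissue as a block gave Zeb2 a log2 difference of 0.88 ± 0.26 (SE, 5 pairs) and an adjusted p = 0.305. The same edgeR fit gave Zeb1 a log2 difference of 1.21 ± 0.14 (SE) and an adjusted p = 0.133. Neither passed, although each had an unadjusted p under 0.05, and of 13989 genes 0, or 0%, passed an adjusted p of 0.05, while 1594 had an unadjusted p under 0.05. DESeq2 passed 369 of 13624 genes, or 2.71%, among them Zeb2 (log2 difference 0.87, adjusted p = 0.0369) and Zeb1 (1.20, adjusted p = 9.07e-08). Both genes were higher in 5 of 5 pairs under each tool. The p-values measure a shift common to different tissues, not the effect in any one of them. The counts are sums over sorted cells, so a different mix of cells and a different amount of RNA per cell cannot be told apart in them.

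Zeb2os, the antisense gene at the start of Zeb2, went the other way. It was at 114 CPM in microglia_WT and 93.9 in microglia_Zeb2KO, at 90.5 and 65.2 in KCs, at 69.2 and 55.8 in CMs, at 41.6 and 34.6 in SMs and at 19.4 and 9.60 in AMs. The log2 ratios ran from −0.94 in AMs to −0.26 in SMs, lower in 5 of 5 pairs. The edgeR fit gave −0.41 ± 0.10 (SE) and an adjusted p = 0.256, and DESeq2 an adjusted p of 0.0485. The Nr1h3fl/fl KC library, with no Zeb2 deletion, was at 67.2 CPM, a gap of −0.42 to KC_WT, and the AM ratio and the KC ratio of −0.47 were larger in size than that gap. Against the Nr1h3fl/fl library the KC ratio was −0.04 (−0.15 to 0.06), so a lower Zeb2os level in KCs was seen against KC_WT alone. Reads of Zeb2os and of exon 2 of the reference Zeb2 transcript, which lies within it, could be exchanged if strand was not used. The last Zeb2 exon does not overlap Zeb2os.

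Cell by cell, macs were compared after each was thinned to 1000 UMIs, with exact Clopper-Pearson 95% intervals. A Zeb2 UMI was found in 36.75% of microglia_WT cells (34.97 to 38.56) and 77.9% of microglia_Zeb2KO cells (76.4 to 79.3), and without thinning in 80.0% and 99.2%. In KCs the shares at 1000 UMIs were 31.9% (30.4 to 33.4) and 50.3% (48.7 to 51.9), with 41.5% in the Nr1h3fl/fl library. In AMs they were 27.2% (26.1 to 28.2) and 34.9% (33.8 to 36.1), and in CMs 32.3% (30.9 to 33.7) and 37.3% (35.8 to 38.9). These 4 pairs of intervals do not overlap, but neither do those of the WT liver libraries, whose shares lay further apart than those of AMs or CMs. In SMs they were 51.9% (49.95 to 53.75) and 53.8% (51.9 to 55.6), which do overlap, after 258 shallower SM_WT cells were left out. Without thinning the AM shares were 65.9% and 82.5% and the CM shares 91.4% in both genotypes, and CMs were the deepest libraries. Other cell types of the same libraries, whose droplets can hold free RNA, were not all far below the macs. In SM_WT a Zeb2 UMI was found in 16.1% of T and NK cells, 22.1% of B cells and 40.8% of erythroid cells at 1000 UMIs, against 51.9% of SMs, with median depths of 2346, 2340 and 2675 UMIs against 2318 among the cells deep enough to be thinned. In SM_Zeb2KO it was found in 6.67%, 19.1% and 28.95% of these types. Hepatocytes, not known for Zeb2, were at 27.3% in KC_WT (6 of 22 cells) and 39.5% in the Nr1h3fl/fl KC library, close to the 31.9% and 41.5% of the KCs, with median depths of 4745.5 and 4278 UMIs. Liver B cells were lower, at 12.7% in KC_WT (7.69 to 19.3), 20.6% in the Nr1h3fl/fl library and 20.8% in KC_Zeb2KO (14.2 to 28.8), and liver endothelial cells were at 28.9%, 34.2% and 35.9%, against 50.3% of KC_Zeb2KO macs. The other types thus differed among themselves, and some of their clusters kept mac markers. The mean log2 difference of 10 mac markers to the other cells of the tissue was −0.06 in 1 liver hepatocyte cluster and −3.83 in the other. The first held all 114 hepatocytes of the Nr1h3fl/fl library. In liver endothelial clusters it was −0.08 and −0.64, in liver B cells −0.76, in erythroid cells −0.51 and in spleen B cell clusters −2.95 and −0.37. The part of free RNA, or of a mac in the same droplet, was not tested.

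Zeb1 UMIs were rare in single cells. At 1000 UMIs they were found in 2.76% of microglia_WT cells (2.19 to 3.43) and 7.18% of microglia_Zeb2KO cells (6.32 to 8.13). In SMs the shares were 0.296% (0.128 to 0.582) and 1.70% (1.25 to 2.24), and these too do not overlap. In KCs they were 0.535% and 1.03%, in CMs 0.322% and 0.648% and in AMs 0.975% and 1.25%, higher in Zeb2KO each time, with overlapping intervals in all 3 tissues. Without thinning Zeb1 was seen in 10.2% and 29.5% of microglia and in 1.45% to 7.77% of macs elsewhere. Several other cell types of the same libraries held Zeb1 UMIs more often than the macs did, 3.97% of B cells and 5.75% of T and NK cells in SM_WT, 3.02% of endothelial cells in KC_WT and 3.79% of fibroblasts in CM_WT at 1000 UMIs. At 1000 UMIs none was found in 152 erythroid cells of SM_WT, 39 smooth muscle cells of CM_WT or 114 hepatocytes of the Nr1h3fl/fl KC library, too few cells to set a share under that of the macs. Erythroid cells of SM_WT held 5 Zeb1 UMIs before thinning, or 9.80 CPM (3.18 to 22.9) against 5.88 in SMs. Hepatocytes held 2 UMIs in KC_WT, or 18.45 CPM (2.23 to 66.65), and 1 in the Nr1h3fl/fl KC library, or 1.73 CPM (0.0438 to 9.63), against 5.45 and 4.99 in the KCs. The Zeb1 level of the macs in WT liver and spleen was therefore not distinguishable from that in these types at this depth. Some of these clusters kept mac markers, as given above, so they are not a clean background.

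**Figure D3:**
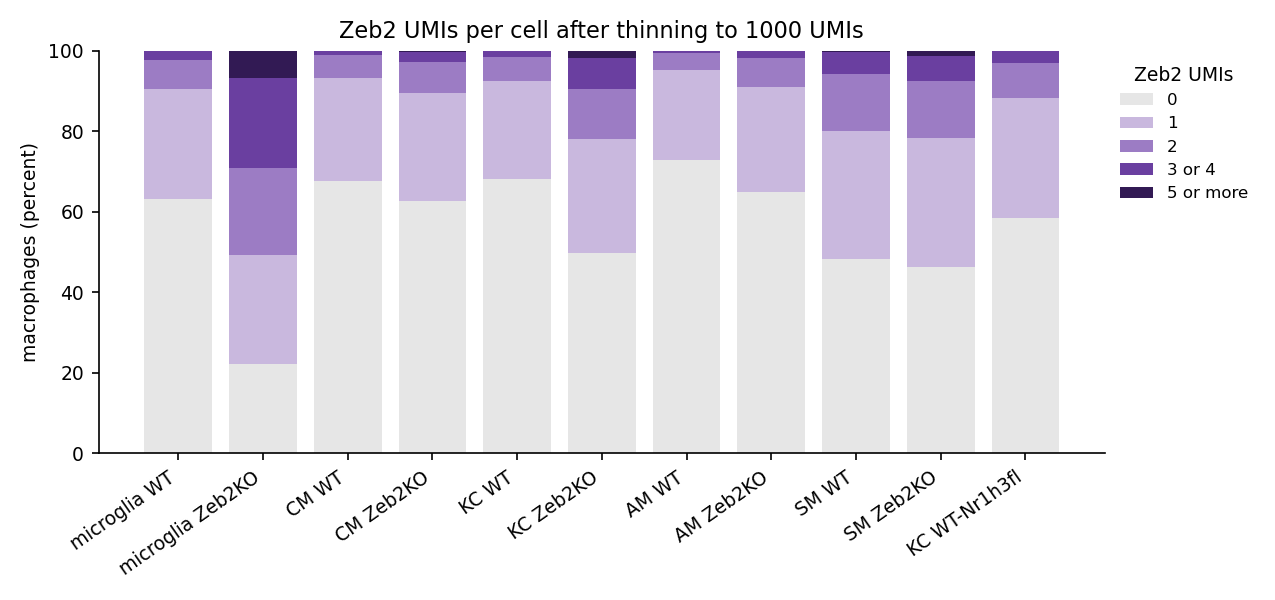
Share of macs, in percent, by number of Zeb2 UMIs per cell after thinning to 1000 UMIs, for WT and Zeb2KO libraries of each tissue. In microglia cells with 0 UMIs are 63.3% in WT and 22.1% in Zeb2KO and the whole distribution lies further right, while in KCs cells with 3 or more UMIs are 1.58% and 9.46% and 49.7% of Zeb2KO cells still have none.

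Zeb2 UMIs were spread over cells more unevenly in Zeb2KO than in WT macs of 4 tissues once the mean was allowed for, and not in microglia. The variance over the mean of thinned Zeb2 UMIs, which is near 1 for pure counting noise, was 1.15 in KC_WT and 1.61 in KC_Zeb2KO. It was 1.17 and 1.49 in microglia, 1.16 and 1.44 in SMs, 1.07 and 1.25 in CMs and 1.03 and 1.15 in AMs, and 1.14 in the Nr1h3fl/fl KC library. Because the ratio grows with the mean, the SD left after counting noise is taken off was also expressed as a percent of the mean. It was 60.8% in KC_WT and 83.1% in KC_Zeb2KO, 44.4% and 70.5% in SMs, 43.2% and 70.1% in CMs and 31.8% and 56.9% in AMs, while in microglia it was 58.6% in WT and 51.4% in Zeb2KO, and lower in Zeb2KO at 500 and 2000 UMIs too. In the Nr1h3fl/fl KCs this SD was 48.7%, so the WT liver libraries differed too. Of genes within 2-fold of the same mean, 7.63% had a higher ratio than Zeb2 in KC_WT and 5.24% in KC_Zeb2KO, and 15% and 25% in the microglia libraries. The shares were 39.1% and 21.6% in SMs, 37.8% and 24.9% in CMs and 41.1% and 19.7% in AMs. At 2000 UMIs the AM shares went the other way, 12.3% in WT and 20.6% in Zeb2KO. Within clusters the KC_Zeb2KO ratio was 1.37 and the microglia_Zeb2KO ratio 1.479, so much of the KC spread lay between clusters and little of that in microglia did. For Zeb1 the ratio lay between 0.99 and 1.085 in all 11 libraries, at levels where almost every positive cell held a single UMI.

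Cells were clustered within each tissue without Zeb1, Zeb2, Zeb2os and the other genes of the lists, and clusters in which the share of Zeb2KO cells was at least 9 times the share of WT cells were called apart. The clusters were not named as cell types, and no Zeb2 genotype was assigned to their cells. In microglia 99.6% of Zeb2KO cells lay in such clusters, in AMs 90.8%, in SMs 79.2%, in KCs 78.5% and in CMs 20.3%. CMs and SMs had been sorted as SiglecF-negative, and the part of that gate in these shares was not tested. The Zeb2 level was higher in the cells apart than in the other cells of the same Zeb2KO library in every tissue. In KCs it was 918 CPM in the cells apart and 339 in the others, against 385.5 in WT. That 918 pools clusters from 54.6 to 1219 CPM, given below. In CMs it was 711 and 416, against 375 in WT, and in AMs 499 and 300, against 312 in WT. In KCs and AMs the other Zeb2KO cells were thus slightly under the WT level, and in CMs above it by 0.15 on the log2 scale, but these pooled levels also move with the mix of clusters. In SMs the cells apart were at 989 CPM and the others at 456, against 749 in WT, and the others had a lower median depth, 1770.5 UMIs against 3048. Of those 590 SM_Zeb2KO cells 343 lay in a single cluster at 180 CPM, which was low in WT too (228 CPM in 111 cells), and the other shared SM clusters stood at 797 to 954 CPM in Zeb2KO and 729.5 to 788 in WT. In microglia only 12 Zeb2KO cells lay in other clusters, at 665 CPM with an interval of 494 to 877.

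Zeb1 followed the same division in CMs, where the 782 cells apart were at 14.2 CPM (11.6 to 17.2), the other Zeb2KO cells at 2.87 (2.29 to 3.56) and WT cells at 2.44 (1.998 to 2.958). The CM difference between genotypes in Zeb1 was therefore carried by the cells apart. In SMs the cells apart were at 18.3 CPM and the others at 13.4, with overlapping intervals, both above the 5.88 of WT. In KCs they were at 13.4 and 9.19, above the 5.45 of WT and with intervals that just overlap, and in AMs at 14.0 and 10.7, where the interval of the others (7.56 to 14.8) took in the 9.33 of WT. Zeb2os in CMs was at 33.7 CPM in the cells apart, 61.6 in the others and 69.2 in WT, the reverse of Zeb1. In the cells apart and the others it was at 62.6 and 74.0 in KCs, 9.64 and 9.29 in AMs and 35.5 and 29.1 in SMs. The division of Zeb2os in CMs was thus not seen in every tissue.

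**Figure D4:**
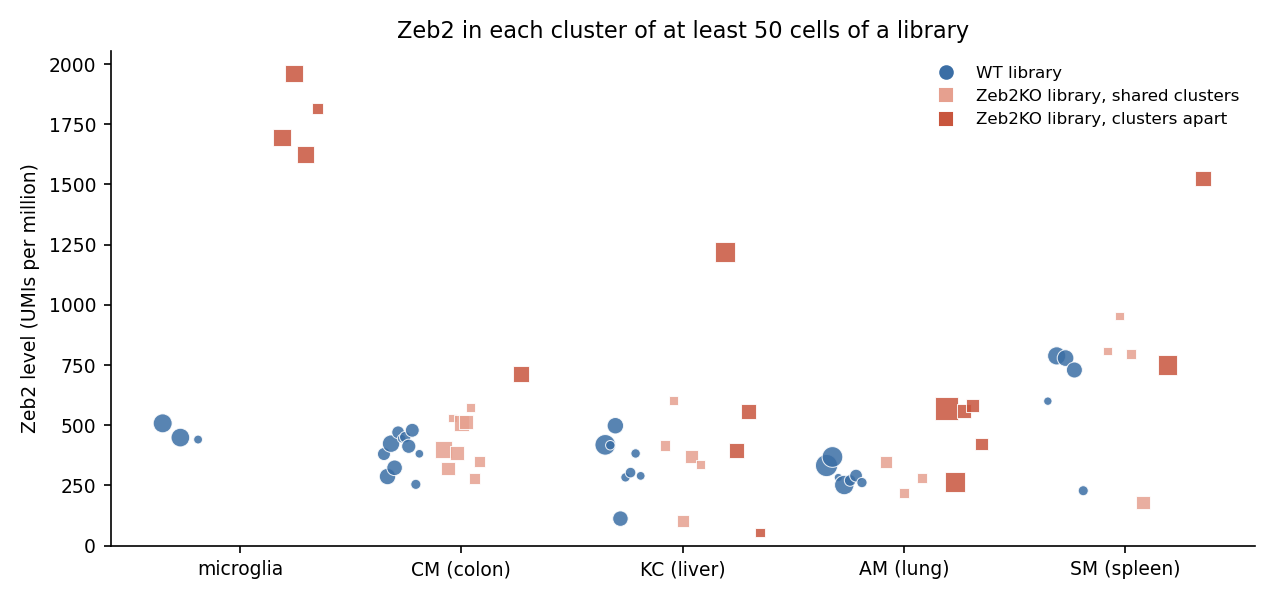
Zeb2 level in CPM (vertical axis) of each cluster of at least 50 cells per library, by tissue and library, with symbols that grow with the number of cells and clusters apart marked. In KC_Zeb2KO clusters run from 54.6 to 1219 CPM, and in microglia the WT clusters (441 to 508) and Zeb2KO clusters (1624 to 1960) do not overlap.

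Not every cluster apart was high in Zeb2. In KC_Zeb2KO the largest, with 1924 cells and Siglecf, Il1r2 and Ms4a1 among its leading genes, stood at 1219 CPM of Zeb2 (1199 to 1239) and 17.6 of Zeb1. A cluster of 104 cells, with Pglyrp1, Plp2 and Il1r2 among its leading genes, stood at 54.6 (34.98 to 81.24), under every WT cluster. A cluster of 529 cells, led by Cx3cr1 and Ccr2, stood at 394 CPM of Zeb2 (376 to 413), near the 385.5 of KC_WT. Another of 489 cells, led by Meg3 and Cd209f, stood at 557 (529 to 586). Zeb1 was at 7.1 and 5.5 CPM in these last clusters. In AM_Zeb2KO the largest cluster apart, with 3024 cells and Krt8, Krt18 and S100a9 leading, stood at 569 CPM, and another of 1756 cells, with Spag11b and Ffar2 leading, at 265 of Zeb2 and only 1.30 of Zeb1. In SM_Zeb2KO a cluster of 685 cells stood at 1525 CPM of Zeb2 and 42.0 of Zeb1, while the largest, of 1543 cells, stood at 751 and 7.61.

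Of the 5 clusters with at least 50 cells of both KC_WT and KC_Zeb2KO, 4 had Zeb2 levels with overlapping intervals. The fifth, of 85 and 273 cells, was led by genes of cell division such as Ube2c and Top2a. In it Zeb2 was 284 CPM in WT (245 to 326.5) and 370.0 in Zeb2KO (347 to 394). The largest WT cluster, led by haemoglobin genes and Clec4f, was at 419 CPM in KC_WT and 416 in its 122 KC_Zeb2KO cells, and a cluster led by ribosomal and Cd209 genes was the lowest of the clusters found in all 3 liver libraries, at 112, 103 and 160 CPM. Within WT libraries the range over clusters was 1.15-fold in microglia and 4.44-fold in KCs. One CM cluster, led by Hp, Mmp8, Ltb and Ms4a1, held 59 WT and 782 Zeb2KO cells, and its Zeb2 level was 444.5 CPM in WT (391 to 503) and 711 in Zeb2KO, with Zeb1 at 1.76 (0.0447 to 9.83, a single UMI) and 14.2. Across clusters of 1 library Pearson's r of Zeb1 and Zeb2 ran from −0.44 in the Nr1h3fl/fl KCs to 0.67 in AM_Zeb2KO over 6 to 11 clusters, where the points share a library and its depth.

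The study had picked surface markers of Zeb2-deleted cells from these same samples, so a split by them is not independent of its choice. In KCs and AMs it then checked such markers on sorted cells by qRT-PCR, PrimeFlow and genomic PCR. By genomic PCR it reported SiglecF-negative KCs and EpCam-negative AMs of the Zeb2KO mice as heterozygous for the deletion. In spleen, brain and colon it picked out deleted cells by the Zeb2 level itself or by these markers. Zeb2KO KCs with a UMI of Siglecf or Ms4a1, which encode a sialic acid-binding lectin and CD20, were 52.1% of KC_Zeb2KO and stood at 1055 CPM of Zeb2, against 466.1 in those without, a log2 ratio of 1.18. Zeb2KO AMs with a UMI of Epcam or Cd101 stood at 523 against 334, a ratio of 0.65, Zeb2KO CMs with a UMI of Ms4a1 or Siglecf at 664 against 446 (0.57) and Zeb2KO SMs with a UMI of Siglecf or Epcam at 1476 against 875.5 (0.75). In microglia the split by Siglecf or Cd101 went slightly the other way, 1726 against 1896 (−0.14). Cells with a marker UMI were deeper than those without in each tissue, and the part of depth was not tested. Zeb1 followed Zeb2 in KCs (15.9 against 8.37 CPM), AMs (15.8 against 6.38), CMs (12.9 against 3.96) and SMs (33.6 against 16.6), and in microglia it was 67.1 against 81.6.

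Within a library, cells with a Zeb2 UMI were not richer in Zeb1 throughout, and the difference was not tested, since cells of 1 library are not replicates. At 1000 UMIs Zeb1 was found in 3.08% of microglia_WT cells with a Zeb2 UMI (2.11 to 4.32) and 2.57% of those without (1.89 to 3.41). In microglia_Zeb2KO it was found in 7.05% (6.08 to 8.12) and 7.66% (5.82 to 9.85). In SM_Zeb2KO it was 2.23% (1.55 to 3.11) against 1.07% (0.59 to 1.79), in the Nr1h3fl/fl KCs 1.11% (0.638 to 1.80) against 0.445% (0.204 to 0.844), and in SM_WT, the other way, 0.143% (0.0173 to 0.514) against 0.461% (0.169 to 1.0). The intervals overlapped in all 11 libraries. At this depth a cell with no Zeb2 UMI may still hold Zeb2 RNA, so the comparison is a weak one.

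Across libraries the relation of the paralogs was weaker once 2 libraries were left out. Pearson's r of log2(CPM + 1) was 0.70 and Spearman's rank coefficient 0.50 over the 11 libraries, of which several share a tissue. Without SM_Zeb2KO and microglia_Zeb2KO, those with the Zeb2 values farthest from the median, r was 0.20 and Spearman's coefficient 0.18 over 9, and over the 6 WT libraries r was 0.04. Those libraries were left out together and not 1 at a time, and leaving out extreme values tends to lower r. The part of each was therefore not separated.

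**Figure D5:**
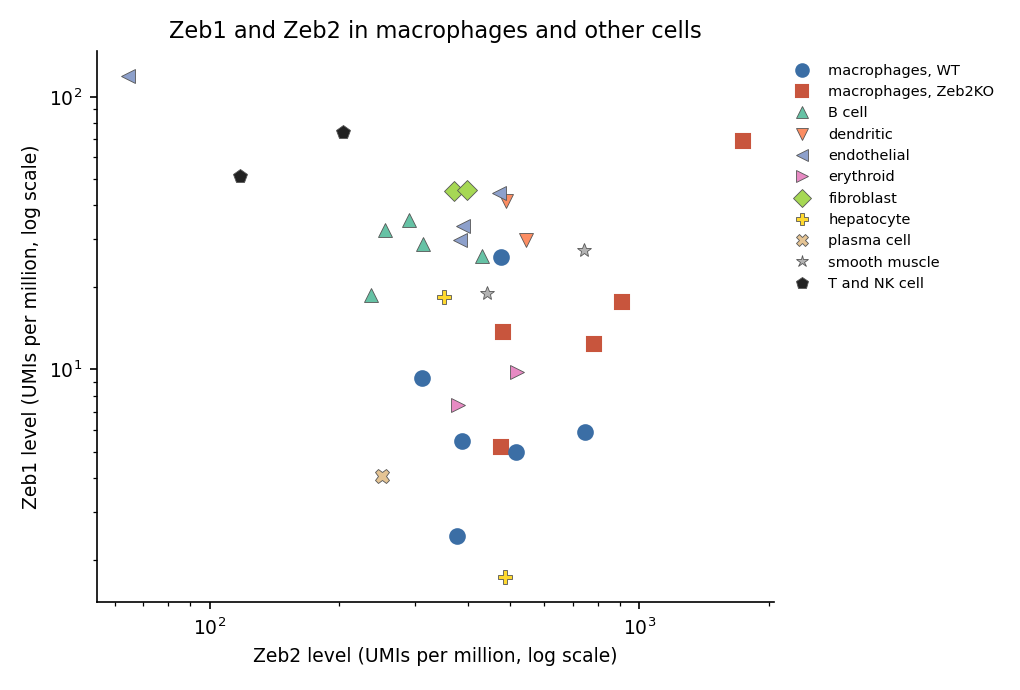
Zeb1 against Zeb2 level in CPM, both axes logarithmic, for macs of the 11 libraries and for other cell types in the same libraries (types with 0 UMIs of either gene are omitted). The macs reach the highest Zeb2 levels, up to 1747 CPM in microglia_Zeb2KO, while lymphocytes, endothelial cells and fibroblasts lie at higher Zeb1 for their Zeb2.

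The genes most like Zeb2 over the 11 libraries, among 5804 with a mean of at least 20 CPM, were I830077J02Rik (r = 0.91), Pmaip1 (0.90), Fcrla (0.89), Vars (0.89) and Uvrag (0.87), and the most opposed were Cracr2b (−0.90), Tnfsf12 (−0.90) and BC029722 (−0.87). All 5 alike genes were highest in microglia_Zeb2KO, as was Zeb2, and the 3 opposed ones were lowest there. Those most like Zeb1 were Crot (0.96), Slc35c2 (0.95), Il1a (0.93), 2810474O19Rik (0.92) and Ythdf2 (0.91), and the most opposed were Atp2b1, Lcmt1 and 0610012G03Rik, each at −0.89. Pmaip1 encodes the BH3-only protein NOXA, Uvrag an autophagy factor, Crot a peroxisomal carnitine acyltransferase and Il1a the cytokine interleukin-1α. No gene was in both lists. The values describe 11 libraries of 5 tissues, with no test.

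Of the known protein partners of ZEB factors, those at 20 CPM stayed within 2-fold in every tissue. Of 20 corepressor and SMAD genes, 15 to 18 reached 20 CPM in each tissue, and 0 were past a log2 ratio of 1 in any of the 5, with a median within 0.08 of the median of all genes. Over all genes 1.08% to 4.37% were higher and 0.489% to 7.33% lower by tissue. At such shares few or none of so small a list would be past 1. Chd4, the ATPase of the NuRD complex, was at 85.8 CPM in microglia_WT and 119 in microglia_Zeb2KO, and at 236 and 129 in AMs, a log2 ratio of −0.87. The acetyltransferase genes Kat2b (28.8 and 14.5 CPM, −0.94) and Ep300 (79.5 and 42.55, −0.89) had ratios of similar size in AMs, where the median gene stood at −0.31, and all 3 would be nearer 0 with TMM scaling, which took Zeb2 to 0.89. In SMs Rbbp7, a histone chaperone, was at 88.8 and 134 CPM (0.58), and in CMs Kat2b was at 17.6 and 24.5 (0.46), both ratios above those of Zeb2 in these tissues. Rbbp4, its relative in the NuRD complex, was at 70.6 and 74.8 in KCs. In edgeR's fit over 5 pairs 0 of the 20 had an unadjusted p under 0.05, and DESeq2 passed none. Of 15 genes of TGFβ and BMP input, 8 or 9 reached 20 CPM in each tissue. Among these Skil, a repressor of SMAD signalling, was lower in AMs (190 CPM in WT and 94.3 in Zeb2KO, log2 ratio −1.001). There 7.33% of all genes were lower, and no other of those at 20 CPM was past 1 in any tissue. In edgeR's fit over 5 pairs Acvr1, Smad1 and Smad5 were lower, and none higher, at an unadjusted p under 0.05. None of the 15 passed after adjustment with either tool. With TMM scaling the Skil ratio was −0.73.

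Among the epithelial genes that ZEB proteins are known to repress, 21 of 32 were under 20 CPM in every library, 9 of them under 1 CPM. In AMs 11 of 32 reached 20 CPM and 7 were higher in Zeb2KO, where 4.37% of all genes were higher, or 6.37% with TMM scaling: Epcam, Cldn1, Tjp3, Spint1, Spint2, Krt8 and Krt18, with none lower. Epcam, an epithelial adhesion molecule, was at 24.0 CPM in AM_WT and 346 in AM_Zeb2KO, and Krt8, a keratin, at 0.255 and 242. Krt8 and Krt18, and Spint2 with the values below, reached 20 CPM in AM_Zeb2KO alone and could only be called higher. Epcam was above 20 CPM in AM_WT too, and the AM_WT levels of Cldn1, Tjp3 and Spint1 are not given here. The lack of lower genes was thus partly set by the floor. Cdh1, which encodes E-cadherin, was at 42.5 and 74.8 (log2 ratio 0.80) and Krt19 at 548 and 483.5. A separate list of 8 epithelial cell markers, which holds some of the same genes, had 637 and 843 summed CPM in the AM libraries, and the part of epithelial RNA was not tested.

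Few of these genes were at 20 CPM elsewhere. Those past a log2 ratio of 1 there reached 20 CPM in the Zeb2KO library alone. They could only be called higher, so their common direction was set by the floor. Tjp3, a tight junction protein, was at 0.243 CPM in microglia_WT and 34.1 in microglia_Zeb2KO. Spint2, a protease inhibitor whose promoter is printed above, was at 2.60 in KC_WT, 1.11 in the Nr1h3fl/fl KCs and 50.5 in KC_Zeb2KO, and at 10.6 and 141.1 in AMs. Spint1, its relative, was at 3.15 in SM_WT and 66.9 in SM_Zeb2KO. In CMs 1 reached the floor, Spint1 at 137 and 157, and none was past 1. Over the 5 pairs 23 of the 32 could be tested, of which edgeR called 0, with 7 higher and 1 lower at an unadjusted p under 0.05 (1594 of 13989 over all genes in either direction), and DESeq2 called 4 higher and none lower (2.71% over all genes). Spint2 had an edgeR log2 difference of 2.97 ± 0.50 (SE) with an adjusted p of 0.164, and an adjusted p of 1.97e-07 by DESeq2.

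The other factors of epithelial-to-mesenchymal transition were scarce, and none of Snai1, Snai2, Snai3, Twist1 and Twist2 reached 20 CPM in any library. Snai1 was highest, at 1.91 CPM in AM_Zeb2KO against 0.583 in AM_WT. Of 7 E-box relatives, the Id genes and E proteins, 4 to 6 reached 20 CPM by tissue. Over all genes 1.08% were higher in CMs, 3.47% in KCs and 4.37% in AMs, where 7.33% were lower. Id2, an inhibitor of E proteins, was at 112 and 254 CPM in CMs, 352 and 892 in KCs and 163 and 955 in AMs, past a log2 ratio of 1 in all 3. Its edgeR log2 difference over the pairs was 1.20 ± 0.41 (SE) with an adjusted p of 0.365, and DESeq2 gave an adjusted p of 0.0612. In microglia Id2 was at 180 and 354 (log2 ratio 0.97), and in SMs at 1816 and 1475. Id1 was higher in KCs (117 and 394.5 CPM) and AMs (76.2 and 437), Id3 in AMs (34.8 and 84.8), and Tcf4, an E protein, was lower in AMs (30.7 and 10.6). None of the list was past 1 in microglia or SMs.

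Of the 9 macrophage factors, Cebpa, a myeloid transcription factor, was lower in 5 of 5 Zeb2KO libraries and past 1 in microglia (666 and 318 CPM) and AMs (170 and 75.8), with log2 ratios of −1.06 and −1.15 that became −0.97 and −0.88 with TMM scaling. Its edgeR log2 difference was −0.73 ± 0.12 (SE) with an adjusted p of 0.164, and DESeq2 gave an adjusted p of 2.78e-05. Cebpb was lower in AMs (1288 and 318 CPM), but it also differed between the WT liver libraries, at 90.6 in KC_WT and 587 in the Nr1h3fl/fl KCs. Csf1r, the receptor that macs depend on, was lower in 5 of 5 with log2 ratios from −0.91 to −0.25, none past 1.

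The genes whose promoters drive the Cre alleles named by the labels or the methods were followed too. Fcgr1 was at 577 CPM in microglia_WT and 272 in microglia_Zeb2KO (log2 ratio −1.08, or −0.98 with TMM scaling), and within 2-fold in the other tissues. Clec4f was at 6095 in KC_WT, 4158 in the Nr1h3fl/fl KCs and 2098 in KC_Zeb2KO, a log2 ratio of −1.54 against the first and −0.99 against the second control. Itgax was at 289 and 501 in AMs, and was higher in Zeb2KO microglia (5.03 and 36.8), KCs (3.06 and 34.2) and SMs (29.1 and 180). In both the Fcgr1-cre and the Clec4f-cre allele, per the methods of the study, the Cre cassette sits in the 3′ end of the driver gene, and its part in the 3′ counts of Fcgr1 and Clec4f was not tested. These values do not settle which Cre was used in liver and lung.

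Genes beside Zeb2 and Zeb1 on their chromosomes showed no common difference of that size. Of the nearest protein-coding genes of Zeb2, Gtdc1 was at 10.6 and 10.3 CPM in WT and Zeb2KO microglia and at 11.1 and 8.62 in KCs, Acvr2a at 6.65 and 5.97 and at 3.19 and 4.04, and Orc4 at 33.8 and 33.7 and at 21.2 and 25.04, with log2 ratios of these 3 genes between −0.33 and 0.38 over the 5 tissues. Arhgap15, a GTPase-activating protein, was at 2.43 and 11.5 in microglia and 12.9 and 0.832 in AMs, in opposite directions and under 20 CPM, and at 39.5 and 61.6 in KCs (0.63) and 40.6 and 26.45 in CMs (−0.60). Beside Zeb1, Kif5b, a kinesin heavy chain, was within a log2 ratio of 0.24 of WT in all 5 tissues, and Arhgap12 was at 58.3 and 38.1 in microglia, the reverse of Zeb1. Zfp438 stayed between 1.11 and 3.97 CPM and Svil between 6.68 and 117.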

How the data were processed

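The authors deposited 1 table of UMI counts per library (27998 genes by cell barcodes), made with Cell Ranger on mm10 per the labels, and the counts were used as deposited. Barcodes within 3 median absolute deviations on UMIs, genes and mitochondrial share were kept. Cells were clustered per tissue with scanpy 1.11.5 and leidenalg 0.10.2 (2000 variable genes without the listed genes, 30 principal components, 15 neighbours, resolution 0.8), and clusters of other cell types were left out by their markers, with a rule set after the clusters were seen. No doublet caller was run, and leaving out the 5% of cells with the most UMIs was tried instead. UMIs were summed over macs per library (7307039 to 42976484) and expressed as CPM. Ratios used CPM + 1.

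The 5 WT and Zeb2KO pairs were tested with edgeR 4.0.16 (quasi-likelihood, TMM, filterByExpr, tissue as block, Benjamini-Hochberg) and, as an alternative, DESeq2 1.42.0. The edgeR fit was checked on simulated data and DESeq2 was not. Within a tissue there was 1 library per group and no test, and nothing in the labels gives the number of mice per library. Intervals are 95% and cover counting error only. Cells were thinned to 1000 UMIs, with 500 and 2000 as alternatives. Other alternatives were scaling, pseudocount 0.1, no cell filter, the Nr1h3fl/fl control and leaving out each pair.

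Genes were named as follows: Zeb1 and Zeb2, genes of the lists past a log2 ratio of 1 at 20 CPM or else the 2 most abundant, the 5 most alike and 3 most opposed, and the 2 nearest protein-coding genes on each side. Zeb2os, Cdh1, Krt19, Csf1r, Kat2b, Ep300, Rbbp7 and Spint1 in CMs were added after their values were seen. The members and lists were chosen with earlier results of these data known. Zeb1 sequences are not reported here.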

Additional observations from a re-analysis of the deposited data

Results flagged for a closer look

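In 10 groups of 5 values, each of another tissue, the highest or lowest was set against the others. The groups were levels or shares of the WT or of the Zeb2KO libraries, or log2 ratios of the 5 pairs. The limit was 0.71 on the gap over the range, and chance passes that limit in about 1 in 20 groups. Since the 5 values are of different tissues, a value that stands apart describes a tissue and not a failed replicate. The Zeb1 level of microglia_Zeb2KO, 68.89 CPM, stood apart from the other 4 Zeb2KO libraries, at 5.20 to 17.6 CPM, with a gap over range of 0.805. The share of microglia_WT cells with a Zeb1 UMI at 1000 UMIs, 2.756%, stood apart from the other WT libraries, at 0.296% to 0.975%, with 0.724. The same share in microglia_Zeb2KO, 7.185%, stood apart from the other Zeb2KO libraries, at 0.648% to 1.70%, with 0.84.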

How the results depend on the processing

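Both genes were higher in Zeb2KO under each of the 6 or 7 alternatives run in each tissue. The log2 ratio of Zeb2 in microglia, 1.88, became 1.97 with TMM factors, 1.93 with DESeq2 size factors and 1.92 as a mean of single-cell CPM. In KCs, 1.02 became 0.99 with TMM factors, 0.94 with all barcodes, 0.97 with size factors, 1.11 as a single-cell mean, 1.09 without the 5% of cells with the most UMIs and 0.60 (0.605) against the Nr1h3fl/fl control, so it was under 1 in 4 of these. In AMs, 0.62 became 0.89 with TMM factors, 0.90 with size factors and 0.53 as a single-cell mean, and in SMs 0.29 became 0.21 as a single-cell mean. Zeb1 in CMs went from 0.85 to 0.57 and in SMs from 1.44 to 0.52 with all barcodes, and in AMs from 0.51 to 0.33 as a single-cell mean, 0.76 with TMM factors and 0.77 with size factors. The left-out spleen B cells were at 35.4 CPM of Zeb1 in SM_WT. Genes past an adjusted p of 0.05 numbered 0 by edgeR, 369 by DESeq2, 3 without the filter on low counts, 3 with the Nr1h3fl/fl control, and 0 to 1 with 1 pair left out (1 without the AM or the SM pair). DESeq2 gave Zeb2 0.87 (adjusted p = 0.0369) and Zeb1 1.20 (adjusted p = 9.07e-08), and over the alternatives the adjusted p ran from 0.0369 to 0.54 and from 9.07e-08 to 0.413. With 1 pair left out the Zeb2 difference ran from 0.62 to 1.03 and that of Zeb1 from 1.13 to 1.31, and without the microglia pair Zeb2 was at 0.62. At a cut of 2 marker UMIs the Zeb2 ratio of cells with against without was 1.06 in KCs, 0.47 in AMs and 0.92 in SMs. The cause of these shifts was not tested. Calls per tissue with TMM factors were an alternative chosen after seeing the data. Shares of cells with a UMI rose with thinning depth, as their construction implies. The fits over tissues were paired by tissue, which was the block, and the labels hold no replicate numbers for another pairing. Depth limits Zeb1, with 43 UMIs in SM_WT.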

Other observations

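The cells set aside as other types carried both genes in other proportions, given here as values of single libraries. Zeb1 was at 74.2 CPM (42.4 to 120.5) in T and NK cells and 35.4 (28.1 to 44.0) in B cells of SM_WT, at 45.2 in colon fibroblasts of CM_WT and at 29.8 in liver endothelial cells of KC_WT, all above the macs of the same library, at 2.44 to 5.88. Erythroid cells of SM_WT were at 9.80 CPM of Zeb1 (5 UMIs) and hepatocytes at 18.45 in KC_WT (2 UMIs) and 1.73 in the Nr1h3fl/fl library (1 UMI). Zeb2 was at 204 CPM in T and NK cells and 291 in B cells of SM_WT, under the 749 of SMs, while liver endothelial cells at 382 and colon fibroblasts at 371 were near the macs of their library. In droplets these values can hold RNA of macs, free or from a mac in the same droplet, and its part was not tested.

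Cells of other types in Zeb2KO libraries were not all at the WT level of Zeb2. B cells of the liver were at 237 CPM (202 to 276) in KC_WT, 313 (235 to 408) in the Nr1h3fl/fl KCs and 431 (382 to 484) in KC_Zeb2KO, and liver endothelial cells at 382 (352 to 414), 388 and 471 (446.5 to 496). B cells of the spleen were at 291 and 256, and colon fibroblasts at 371 and 397.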
